A study of Caenorhabditis elegans with 15 samples.

Results

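The data described here are 2151 short introns of C. elegans with a pair of alternative 5' splice sites exactly 1 nt apart. They were taken from the alternative 5' events of the deposited tables by 3 conditions, namely that an event is scored in all 15 libraries, that its sites lie 1 nt apart and that the intron measured from the upstream site is under 100 nt. These introns are 14.1% of the 15261 alternative 5' events scored in all libraries, and 3490 of those events have sites 1 nt apart at any intron length. A further 277 introns that meet the conditions on distance and length were not scored in every library and were not analysed. The conditions compare no PSI between strains, but an event is in the tables only through reads of these libraries.

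Each strain has 3 libraries of polyA RNA from mixed-stage whole worms grown at 20C on OP50 bacteria, and all strains derive from the Bristol N2 wild type. The strains are SZ356 for PRCC(null), SZ346 for PRCC(I371F), SZ355 for KIN17(M107I), SZ345 for KIN17(K23N) and SZ340 for the control. PRCC(null) carries prcc-1(gk5556), a deletion allele, and PRCC(I371F) carries the substitution allele prcc-1(az122). KIN17(M107I) carries dxbp-1(az52) together with unc-73(az63), and KIN17(K23N) carries dxbp-1(az121) together with unc-73(e936az30). The smg-4 control carries smg-4(az152) alone, and this allele is present in all 5 strains. The libraries are numbered 1 to 9 for PRCC(I371F), KIN17(K23N) and the control, and 24 to 29 for PRCC(null) and KIN17(M107I). A difference of PRCC(null) or KIN17(M107I) from the control therefore cannot be told apart from a difference between these numbered sets.

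A 5' splice site is the boundary between an exon and the start of the following intron. It is first recognised through base pairing with U1 snRNA and is later handed over to U6 snRNA, and most introns start with GU. PRCC and KIN17 are proteins found in spliceosomes before catalysis, and the strains were made to ask whether they bear on which of a pair of neighbouring 5' sites is used. Moving a 5' site by a single nucleotide in coding sequence shifts the reading frame, and transcripts with a shifted frame are often removed by nonsense-mediated decay. smg-4 is needed for that decay, so all strains were compared in a background in which such transcripts are more stable.

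The measurement is the percent spliced in (PSI), which for these events is the use of the downstream site as a percentage of the use of both sites. A rise in PSI is a shift to the downstream site and a fall is a shift to the upstream site. Read counts are not given in the tables, so the depth of a PSI value is unknown and a single library has no interval. Between 18300 and 19366 alternative 5' events were scored in a library. Over the introns described here, 2 replicates of a strain differed in PSI by a mean absolute value of 0.890 to 2.17 percentage points. The strains differ in this measure, with 1.93 to 1.97 points in PRCC(null), 2.09 to 2.17 in PRCC(I371F), 1.12 to 1.25 in KIN17(M107I), 1.38 to 1.47 in KIN17(K23N) and 0.890 to 1.10 in the control.

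The starts of 14 of these introns show what the pairs of sites look like. They belong to introns that are described below with their values, and they come from the table of events that the study compiled after inspecting its own alignments, so the sequences are those of introns chosen for their change in these samples. Each sequence runs 5' to 3' from the upstream site, and the capital is the base between the sites, which is intronic when the upstream site is used and exonic when the downstream site is used. The first 9 are introns that shifted to the downstream site.
elp-1: Gttagatacttgt
rars-2: Gttagttaataca
Y5F2A.4: Gttagttacaggt
spe-39: Gttagctattaaa
F09E5.8: Gttagttctgatg
T23E1.2: Gttaggaatttct
T21H3.9: Gttagttatttag
T19A5.3: Gttagtccatttt
dnj-20: Gttatttatcaat
The remaining 5 are introns that shifted to the upstream site.
pept-2: Ggttgttattgat
Y54G2A.36: Ggatagtttatcg
F44D12.2: Ggttgtgactctt
cbs-1: Ggtaggaaatggg
F28F8.7: Ggtacacattgca

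In the first set the intron starts with GT from the upstream site and with TT from the downstream site. In the second set it starts with GG from the upstream site, and from the downstream site with GT in pept-2, F44D12.2, cbs-1 and F28F8.7 and with GA in Y54G2A.36. The study's table lists 34 of the introns described here, and 33 of them have 1 undisputed start. All 25 of these whose downstream site is the less used one in the control start with GTT, 24 start with GTTA and 20 with GTTAG. All 8 whose upstream site is the less used one start with GG, and in 7 of them the second base begins a GT. For the other introns the start was not read, because no genome of the build used by the files was at hand.

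In the control most of these introns used 1 of the sites almost exclusively. The mean PSI of the control was under 5% in 1102 introns, over 95% in 971 and between 20% and 80% in 27. The downstream site was the less used one in 1153 introns and the upstream site in 998. In all 3 control libraries the less used site had a use of 0 in 1219 introns, and in 170 it was above 0 in each of them. The study formed its events from introns with at least 5 reads summed over all samples, so an intron whose less used site had no reads in the control is in the tables through the other strains. The less used site was at 0 in all 3 libraries in 200 introns in PRCC(null), 187 in PRCC(I371F), 791 in KIN17(M107I) and 790 in KIN17(K23N), against these 1219 in the control. The averages, counts and p-values given below for the mutant strains against the control are therefore a description of this set, in which many introns could differ only upward from a use of 0.

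**Figure D1:**
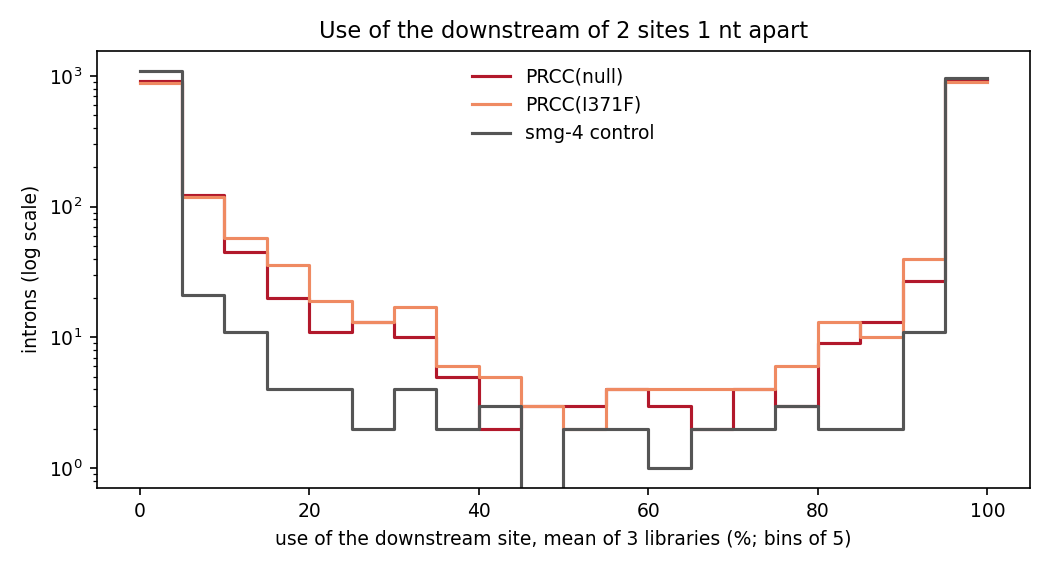
Number of introns (log scale) by their use of the downstream site (mean of 3 libraries, in percent, bins of 5) in PRCC(null), PRCC(I371F) and the smg-4 control. Introns between 5% and 95% number 299 in PRCC(null), 362 in PRCC(I371F) and 78 in the control, and a bin without introns reaches the lower edge of the plot.

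In this set, which the reads of the mutant strains helped to form, both sites of a pair were used in more introns in the mutant strains than in the control. A mean PSI between 5% and 95% was found in 299 introns in PRCC(null), 362 in PRCC(I371F), 123 in KIN17(M107I) and 120 in KIN17(K23N), against 78 in the control. A PSI of exactly 0 or 100% made up 31.3% to 34.3% of the values in PRCC(null) libraries, 29.1% to 32.9% in PRCC(I371F), 60.6% to 64.5% in KIN17(M107I) and 61.6% to 64.0% in KIN17(K23N), against 75.2% to 78.0% in the control. Whether sequencing depth differs between the libraries in a way that moves these shares cannot be read from the tables and was not tested.

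Where the downstream site is the less used one in the control, its use averaged over 1153 introns was 3.92%, 3.73% and 3.65% in the PRCC(null) libraries and 4.49%, 4.90% and 4.56% in the PRCC(I371F) libraries, against 0.949%, 0.857% and 1.19% in the control libraries. The libraries of either PRCC strain thus lie above all 3 control libraries, without overlap. In KIN17(M107I) the same average was 1.37%, 1.55% and 1.32%, and in KIN17(K23N) it was 1.47%, 1.56% and 1.44%. Where the upstream site is the less used one, its use over 998 introns averaged 2.17%, 1.96% and 2.23% in PRCC(null) and 2.45%, 2.51% and 2.43% in PRCC(I371F), against 0.788%, 0.766% and 0.659% in the control. For KIN17(M107I) these averages were 1.28%, 1.20% and 1.24%, and for KIN17(K23N) 0.967%, 1.29% and 1.35%. For both kinds of pair the averages of all PRCC libraries lie above those of all other libraries, as a description of a set whose events were formed from reads of all libraries.

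The control defines the less used site in this comparison, which lowers its own average. The way the events were formed bears on these averages as well, and its part was not tested. With the side taken from the 6 KIN17 libraries instead, a choice made after the values were seen, the downstream averages were 3.90% ± 0.144 in PRCC(null) and 4.75% ± 0.257 in PRCC(I371F), against 1.30% ± 0.209 in the control (SD, n = 3). The upstream averages were then 1.89% ± 0.146 in PRCC(null) and 2.21% ± 0.0859 in PRCC(I371F), against 0.691% ± 0.026 in the control (SD, n = 3).

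**Figure D2:**
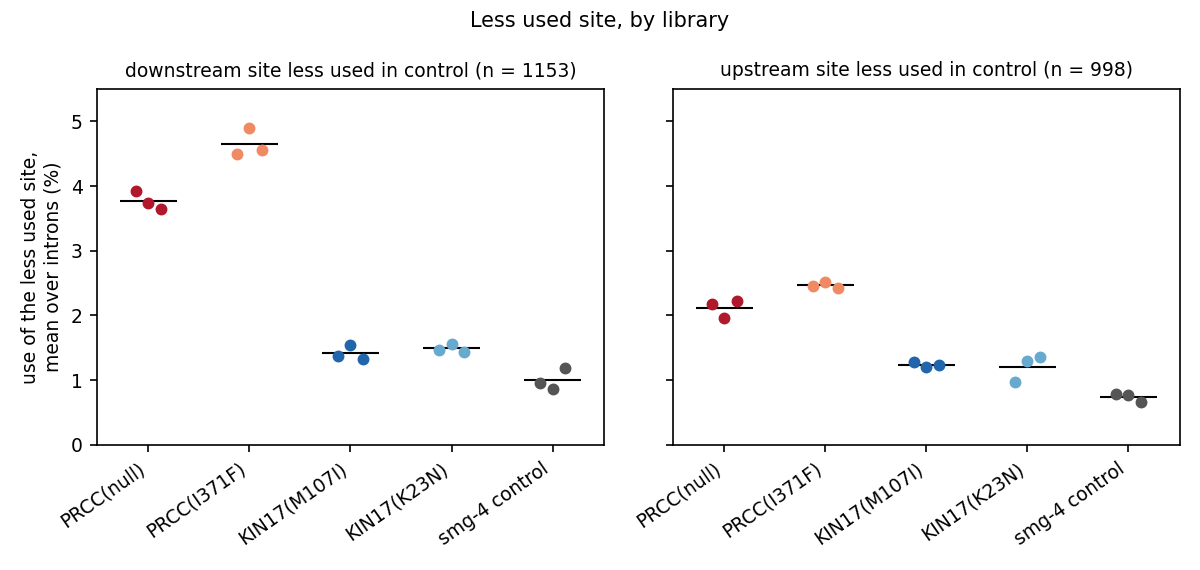
Use of the site that is less used in the control, averaged over introns (in percent), with 1 point per library and a line at the mean of 3 libraries of a strain. The left panel holds 1153 introns with a less used downstream site and the right panel 998 with a less used upstream site, and the PRCC libraries lie highest in both.

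Each mutant strain was compared with the control in a limma fit to all 15261 events, with a call at an adjusted p under 0.05 over all of them. In PRCC(null), 461 of the introns shifted downstream, against 19.6% of all events, and 172 shifted upstream, against 3.30% of all events. They are 21.4% and 8.0% of the introns described here. In PRCC(I371F), 459 shifted downstream, against 11.3% of all events, and 173 shifted upstream, against 2.41% of all events. These are 21.3% and 8.04% of the introns. The comparisons of the PRCC strains share the control libraries.

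Most of these shifts were small. In PRCC(null) the median change was 3.17 percentage points among introns that shifted downstream and -2.34 points among those that shifted upstream. In PRCC(I371F) the medians were 3.55 and -3.06 points. A mean change over 20 points was reached by 18 of the downstream and 9 of the upstream shifts in PRCC(null), and by 32 and 11 in PRCC(I371F). Over all 2151 introns the median change was 0.119 points in PRCC(null) and 0.115 in PRCC(I371F), against 0.302 and 0.149 over all events.

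The direction followed the side on which the less used site lies. All 459 introns that shifted downstream in PRCC(I371F) have a less used downstream site in the control, and all 173 that shifted upstream have a less used upstream site. In PRCC(null) this held for 459 of 461 and for 170 of 172. An intron with a PSI of 0 or 100% in the control can move in only 1 direction, so this is a description of the calls.

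The KIN17 strains showed few calls. In KIN17(M107I), 9 introns shifted downstream, against 0.524% of all events, and 7 shifted upstream, against 0.170%. In KIN17(K23N), 6 shifted downstream, against 0.472% of all events, and 4 upstream, against 0.144%. As shares of the introns these are 0.418% and 0.325% in KIN17(M107I) and 0.279% and 0.186% in KIN17(K23N). With counts this small, no difference from the shares of all events is read from them. Between the KIN17 strains no intron was called, against 0.00655% of all events downstream and 0.00655% upstream, while 101 introns had an unadjusted limma p under 0.05. The fit to the 6 KIN17 libraries alone called 4 introns.

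Comparisons between mutant strains within a numbered set do not use the control means, but the control libraries enter their estimate of the spread. In PRCC(null) against KIN17(M107I), 383 introns shifted downstream, against 16.3% of all events, and 122 upstream, against 2.33%. In PRCC(I371F) against KIN17(K23N), 389 shifted downstream, against 8.02% of all events, and 128 upstream, against 1.68%. The shares of the introns described here were 17.8% and 5.67% for PRCC(null), and 18.1% and 5.95% for PRCC(I371F). Fits to the 6 libraries of each pair alone called 374 introns in all for PRCC(null) and 355 for PRCC(I371F). The less used site was at 0 in all 3 libraries in 791 introns in KIN17(M107I) and 790 in KIN17(K23N), against 200 in PRCC(null) and 187 in PRCC(I371F). Many introns could thus differ only upward from 0 here too, and these counts are likewise a description of this set.

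The study's own rule asks for more. It requires that all 9 pairwise differences between libraries of a mutant strain and the control exceed 15 points in the same direction and that their mean exceeds 20 points. By this rule 17 introns shifted downstream in PRCC(null), against 1.17% of all events, and 6 upstream, against 0.380%. In PRCC(I371F), 30 shifted downstream, against 0.898% of all events, and 10 upstream, against 0.413%. In KIN17(M107I) the rule passed 1 downstream shift, against 0.183% of all events, and 4 upstream shifts, against 0.190%. In KIN17(K23N) it passed 0 downstream shifts, against 0.183%, and 2 upstream shifts, against 0.144%. The shares of the introns described here were 0.79% and 0.279% in PRCC(null), 1.39% and 0.465% in PRCC(I371F), 0.0465% and 0.186% in KIN17(M107I), and 0% and 0.093% in KIN17(K23N). The downstream share of PRCC(I371F) lies above that of all events, and its upstream share is close to it. The other shares lie close to or below those of all events. With counts this small, no difference is read from these shares. Limma also called 16 and 6 of the shifts that the rule passed in PRCC(null) and 27 and 10 of those in PRCC(I371F). The inspection of single events in a genome browser that the study added could not be repeated from the tables, and its table lists 12 of the downstream and 3 of the upstream shifts of PRCC(null), and 20 and 7 of those of PRCC(I371F).

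The 15 introns named here with a downstream shift in a PRCC strain are those with the largest changes that passed both tests, at most 10 per strain. Gene names are those of the study's table, and positions are the intron from the upstream site in WS220/ce10. elp-1 encodes a microtubule-binding protein of the EMAP family. In its 47 nt intron (chrV:20766958-20767004, minus strand) the downstream site was used at 40.4%, 36.4% and 34.3% in PRCC(null) and at 54.8%, 41.1% and 43.9% in PRCC(I371F), against 4.62%, 0% and 0% in the control. The groups do not overlap, and the changes were 35.5 points (adjusted p = 0.000281) and 45.1 points (adjusted p = 0.000303). In elp-1 the KIN17 libraries lay between 4.65% and 17.9%, and neither KIN17 strain passed the test (adjusted p = 0.204 in KIN17(M107I) and 0.191 in KIN17(K23N)).

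W05F2.6 has a 65 nt intron (chrI:3369547-3369611, plus strand) in which no control library used the downstream site. Its use was 36%, 39.2% and 31.3% in PRCC(null) and 43.3%, 41.7% and 47.8% in PRCC(I371F), against 0% in all 3 control libraries. The changes of W05F2.6 were 35.5 points (adjusted p = 1.99e-07) and 44.3 points (adjusted p = 4.13e-07). This intron is also among the few called in the KIN17 strains, with 10.4%, 11.2% and 11.1% in KIN17(M107I) (adjusted p = 0.000271) and 8.93%, 5.31% and 6.25% in KIN17(K23N) (adjusted p = 0.000379).

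imb-3 encodes an importin of the beta family, which carries cargo into the nucleus. Its 48 nt intron (chrI:314776-314823, minus strand) had 27%, 26.2% and 23.8% use of the downstream site in PRCC(null) and 37.1%, 39.2% and 44.6% in PRCC(I371F), against 1.72%, 0% and 3.29% in the control. Both groups of PRCC libraries lie above every control library, with changes of 24 points (adjusted p = 6.70e-05) and 38.6 points (adjusted p = 4.16e-05). rars-2 encodes an arginyl-tRNA synthetase. In its 48 nt intron (chrII:6125768-6125815, plus strand) the use was 29.4%, 25.3% and 23.5% in PRCC(null) and 41.6%, 38.2% and 39.1% in PRCC(I371F), against 5.10%, 1.99% and 3.37% in the control. The changes of rars-2 were 22.5 points (adjusted p = 0.000162) and 36.1 points (adjusted p = 7.39e-05).

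spe-39 is needed for sperm development and acts in vesicle traffic. Its 51 nt intron (chrV:6786159-6786209, plus strand) had 20.9%, 18.9% and 20.7% in PRCC(null) and 32.6%, 36.7% and 38.6% in PRCC(I371F), against 0%, 0% and 2.70% in the control. The change of spe-39 was 19.3 points in PRCC(null) (adjusted p = 0.000171), short of the mean of 20 points that the pairwise rule asks for, and 35 points in PRCC(I371F) (adjusted p = 8.42e-05). F09E5.8 has a 53 nt intron (chrII:5351029-5351081, plus strand) with 21.3%, 20.8% and 22.1% in PRCC(null) and 35.8%, 43.7% and 37.3% in PRCC(I371F), against 0.730%, 0.905% and 0.453% in the control. Its changes were 20.7 points (adjusted p = 9.54e-06) and 38.2 points (adjusted p = 5.53e-06), and it shares a 5' site with another scored event.

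Y5F2A.4 and T23E1.2 had the widest spread among the PRCC(I371F) libraries of the named downstream shifts in the study's table. The 45 nt intron of Y5F2A.4 (chrIV:11077880-11077924, minus strand) had 28.4%, 30.0% and 33.7% in PRCC(null) and 35.2%, 47.7% and 31.2% in PRCC(I371F), against 0%, 1.11% and 0.962% in the control, with adjusted p = 1.00e-05 and 1.66e-05. The 55 nt intron of T23E1.2 (chrIV:3146572-3146626, plus strand) had 37.0%, 20.0% and 22.2% in PRCC(null) and 45.8%, 32.1% and 58.5% in PRCC(I371F), against 3.70%, 5.80% and 4.71% in the control, with adjusted p = 0.0118 and 0.00189. T21H3.9 has a 63 nt intron (chrV:17655732-17655794, minus strand) in which all 3 PRCC(I371F) libraries used the downstream site more than the upstream one, with 56.4%, 54.5% and 50.7%. PRCC(null) had 40.5%, 31.8% and 37.0% in T21H3.9, against 1.35%, 1.66% and 2.22% in the control, with adjusted p = 2.08e-06 in PRCC(null) and 2.26e-06 in PRCC(I371F). T21H3.9 also has the largest downstream change called in KIN17(M107I), with 23%, 24% and 17.4% (adjusted p = 0.000631), and KIN17(K23N) had 17.9%, 10.3% and 15.1% (adjusted p = 0.00194).

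Among the named downstream shifts, the 2 longest introns had higher values in PRCC(null) than in PRCC(I371F). dnj-20 encodes a protein with a DnaJ domain, the mark of Hsp40 co-chaperones. Its 99 nt intron (chrII:9623434-9623532, minus strand) had 31.5%, 25.9% and 26.3% in PRCC(null) and 16.8%, 18.0% and 22.8% in PRCC(I371F), against 1.27%, 0.621% and 1.99% in the control. The libraries of both PRCC strains lie above the control, with changes of 26.6 points (adjusted p = 2.64e-06) and 17.9 points (adjusted p = 2.67e-05). In dnj-20 the KIN17 strains were also called, with 11.4%, 11% and 8.15% in KIN17(M107I) (adjusted p = 0.00297) and 14.2%, 14.7% and 15.3% in KIN17(K23N) (adjusted p = 0.000723). The 91 nt intron of T19A5.3 (chrV:8941810-8941900, minus strand) had 25.9%, 33.3% and 34.9% in PRCC(null) and 21.3%, 15.3% and 22.6% in PRCC(I371F), against 0% in all 3 control libraries, with adjusted p = 9.75e-06 and 9.56e-05. The PRCC strains compared directly did not pass the test in dnj-20 (8.73 points, adjusted p = 0.246) or in T19A5.3 (11.7 points, adjusted p = 0.394), and both introns share a 5' site with another scored event.

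The 73 nt intron of nepr-1 (chrI:8399052-8399124, plus strand) had close values in the PRCC strains, with 25%, 27.1% and 28.4% in PRCC(null) and 28.8%, 31.1% and 29.6% in PRCC(I371F), against 0%, 0.180% and 0% in the control. The remaining 3 named downstream shifts have no gene name at hand and took widely spread values. A5.005433 (56 nt, chrII:8158364-8158419, plus strand) had 44.4%, 33.3% and 20.0% in PRCC(null) and 60.0%, 50% and 42.9% in PRCC(I371F), against 0% in the 3 control libraries, and its adjusted p of 0.0451 and 0.0278 rose to between 0.0558 and 0.118 without any 1 of the libraries compared. A5.000860 (71 nt, chrI:4158187-4158257, minus strand) had 100%, 33.3% and 37.5% in PRCC(null), against 0% in the control (adjusted p = 0.0119, and 0.070 in a fit to the 6 libraries alone). PRCC(I371F) had 35.7%, 0% and 40% in A5.000860 and did not pass (adjusted p = 0.281). A5.020381 (64 nt, chrX:15072421-15072484, minus strand) had 40%, 16.7% and 33.3% in PRCC(null), against 0% in the control (adjusted p = 0.0317). This rose to 0.0722 with 0.05 added to both shares and to 0.219 with untransformed PSI. It was 0.0776 to 0.0889 without replicate 1 or 3 of PRCC(null) or any replicate of the control. In A5.020381 PRCC(I371F) had 0%, 75% and 66.7% (adjusted p = 0.0526) and KIN17(M107I) 50%, 66.7% and 50% (adjusted p = 0.101), and neither passed the test. This last intron is the downstream shift that the pairwise rule passed in KIN17(M107I).

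**Figure D3:**
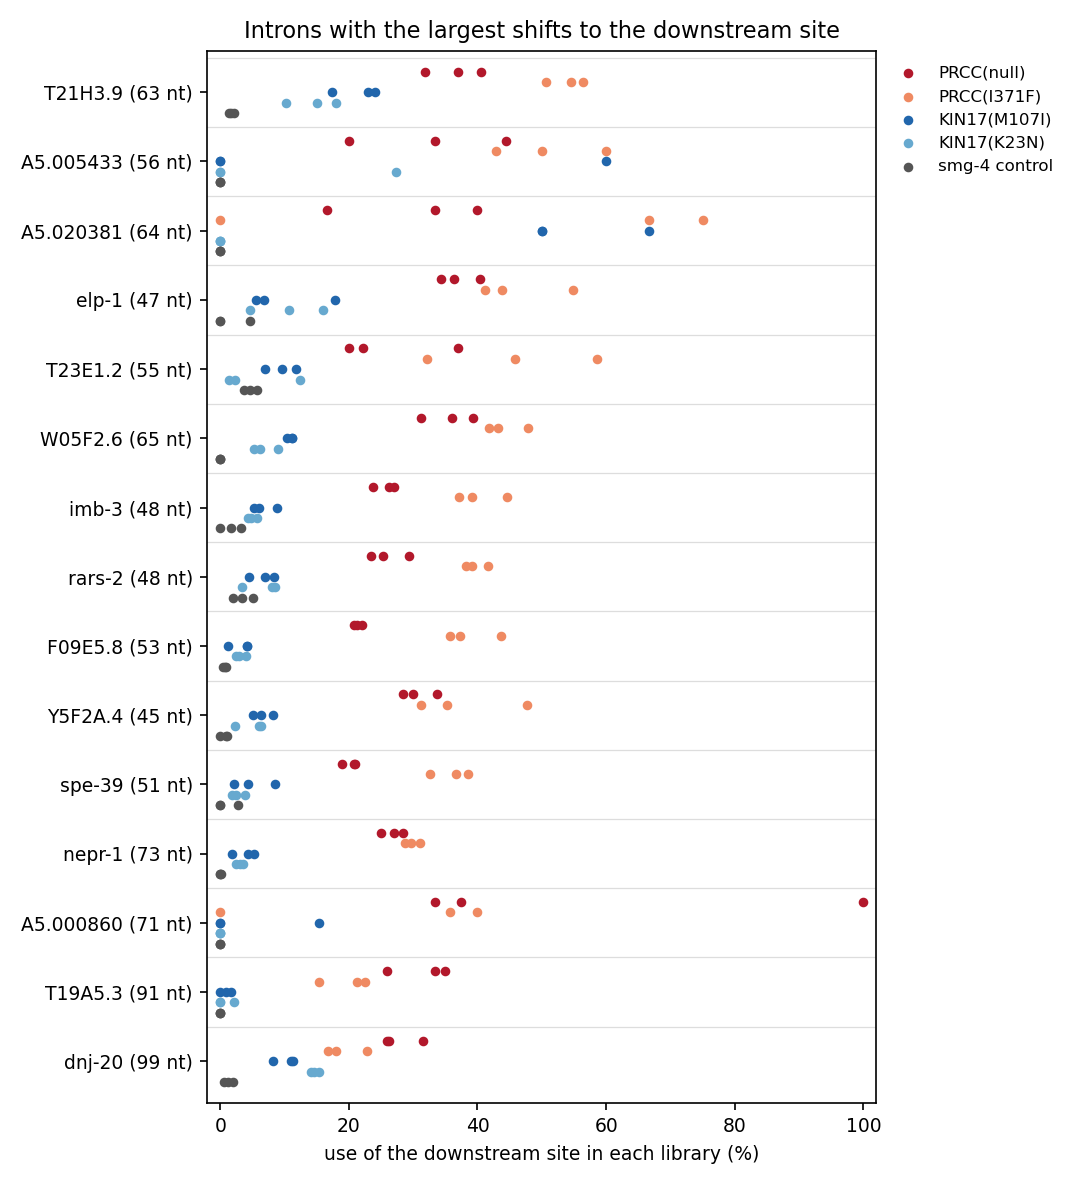
Use of the downstream site (in percent) in each library for the introns with the largest downstream shifts in the PRCC strains, with the intron length in nt beside each name and a row of points per strain from PRCC(null) at the top to the smg-4 control at the bottom. Control libraries lie between 0% and 5.80% in all of these introns.

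Upstream shifts were led by 8 introns of 44 to 51 nt. pept-2 belongs to a family of oligopeptide transporters. In its 45 nt intron (chrIV:10792979-10793023, plus strand) the downstream site, which the control used almost always, was used at 69.5%, 73.2% and 72.1% in PRCC(null) and at 41.4%, 39.5% and 44.7% in PRCC(I371F), against 98.1%, 99% and 95.2% in the control. The GG-starting upstream site of pept-2 was thus the more used one in all 3 PRCC(I371F) libraries. The changes were -25.9 points (adjusted p = 0.000216) and -55.6 points (adjusted p = 3.42e-05), and the direct comparison of PRCC(null) with PRCC(I371F) gave 29.7 points (adjusted p = 0.0539).

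In the 47 nt intron of Y54G2A.36 (chrIV:2901095-2901141, plus strand) the downstream site starts with GA. This intron shares a 5' site with another scored event, so its PSI leaves out any further site. The downstream site was used at 73.7%, 71.8% and 75.3% in PRCC(null) and at 60.5%, 57.9% and 52.9% in PRCC(I371F), against 98.4%, 97.4% and 98.5% in the control. The changes of Y54G2A.36 were -24.5 points (adjusted p = 4.57e-06) and -41.0 points (adjusted p = 3.08e-06). KIN17(M107I) also shifted, with 88.0%, 87.8% and 89.5% (adjusted p = 0.00357), while KIN17(K23N) had 93.6%, 94.9% and 92.7% (adjusted p = 0.0749).

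cbs-1 encodes a cystathionine beta-synthase, an enzyme of the pathway from homocysteine to cysteine. Its 44 nt intron (chrX:10054940-10054983, plus strand) had 86.6%, 88.5% and 84.1% use of the downstream site in PRCC(null) and 61.9%, 64.2% and 67.4% in PRCC(I371F), against 100% in all 3 control libraries. The changes of cbs-1 were -13.6 points (adjusted p = 5.73e-06) and -35.5 points (adjusted p = 2.26e-06). The KIN17 strains moved the same way by less, with 92.7%, 93.9% and 92.4% in KIN17(M107I) (adjusted p = 0.00112) and 97.3%, 94.7% and 98.2% in KIN17(K23N) (adjusted p = 0.0174). F28F8.7 has a 46 nt intron (chrV:15589550-15589595, plus strand) with 52.4%, 61.4% and 46.9% in PRCC(null) and 72.1%, 51.0% and 70.6% in PRCC(I371F), against 100% in all 3 control libraries, with adjusted p = 9.02e-05 and 0.000443.

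F44D12.2 has a 44 nt intron (chrIV:10014342-10014385, minus strand) with 80%, 85.7% and 86.2% in PRCC(null) and 57.7%, 37.8% and 76.7% in PRCC(I371F), against 93.1%, 91.9% and 98.5% in the control. It passed the test in PRCC(I371F) (adjusted p = 0.00238, and 0.0774 in a fit to the 6 libraries alone) and not in PRCC(null) (adjusted p = 0.0732), and the direct comparison of the PRCC strains did not pass either (adjusted p = 0.110). Without a gene name, A5.012224 (46 nt, chrIV:7313495-7313540, minus strand) had 39.3%, 43.6% and 43.8% in PRCC(null) and 55%, 23.3% and 25% in PRCC(I371F), against 92.9%, 75.0% and 100% in the control, with adjusted p = 0.0380 and 0.0326. Without replicate 1 or 3 of the control, or a replicate of either PRCC strain other than replicate 1 of PRCC(I371F), these rose to between 0.0717 and 0.148. A5.015198 (46 nt, chrV:5030600-5030645, minus strand) had 0% in all PRCC(null) libraries, against 16.7%, 50% and 60.0% in the control (adjusted p = 0.0184, and 0.0620 and 0.0702 without replicate 2 or 3 of the control). This is an intron whose upstream site was already used in the control, and 2 of the PRCC(I371F) libraries were at 0% as well.

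A5.017625 (51 nt, chrV:15185249-15185299, plus strand) is the intron that passed both tests in each KIN17 strain. The downstream site was used at 75.0%, 69.2% and 60.0% in KIN17(M107I) and at 83.3%, 80% and 66.7% in KIN17(K23N), against 100% in the 3 control libraries. The changes of A5.017625 were -31.9 points (adjusted p = 0.00297) and -23.3 points (adjusted p = 0.00704), and they did not pass with 0.05 in place of 0.01 added to both shares (adjusted p = 0.0501 and 0.129) or with untransformed PSI (adjusted p = 0.694 and 0.916). It had 33.3%, 73.3% and 25% in PRCC(null) (adjusted p = 2.09e-05) and 66.7%, 81.8% and 63.6% in PRCC(I371F) (adjusted p = 0.000326).

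**Figure D4:**
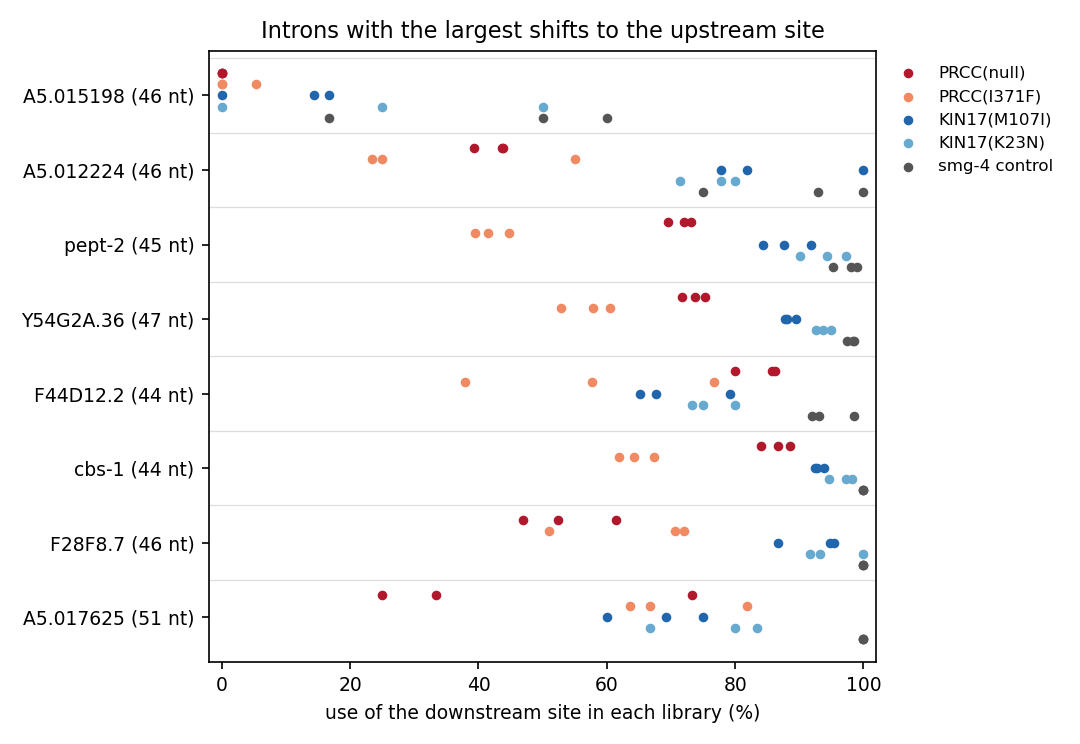
Use of the downstream site (in percent) in each library for the introns with the largest upstream shifts in the PRCC strains, with the intron length in nt beside each name and a row of points per strain from PRCC(null) at the top to the smg-4 control at the bottom. In pept-2 all PRCC(I371F) libraries lie between 39.5% and 44.7%, and all control libraries between 95.2% and 99%.

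Upstream shifts were found in few introns of 55 nt or more. The introns described here have a median length of 49 nt, with quartiles of 47 and 53 nt and a range of 39 to 99 nt. Where the upstream site is the less used one, the introns that shifted upstream in PRCC(null) were 20 of 105 at 39 to 44 nt, 108 of 509 at 45 to 49 nt, 38 of 210 at 50 to 54 nt, 3 of 111 at 55 to 69 nt and 1 of 63 at 70 to 99 nt. In PRCC(I371F) they were 36, 105, 27, 4 and 1 of the same numbers of introns. The shares in PRCC(null) were thus 19.0%, 21.2%, 18.1%, 2.70% and 1.59% from the shortest to the longest class, close to each other up to 54 nt. In PRCC(I371F) they were 34.3%, 20.6%, 12.9%, 3.60% and 1.59%, highest in the shortest class. Among the introns whose upstream site was above 0 in all 3 control libraries, the class of 39 to 44 nt holds only 10, of which 0 shifted upstream in PRCC(null) and 3 in PRCC(I371F).

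Downstream shifts were found at every length. Where the downstream site is the less used one, they were found in PRCC(null) in 12 of 52 introns at 39 to 44 nt, 166 of 507 at 45 to 49 nt, 144 of 320 at 50 to 54 nt, 73 of 169 at 55 to 69 nt and 64 of 105 at 70 to 99 nt. For PRCC(I371F) the numbers were 14, 201, 148, 57 and 39. The share in PRCC(null) was thus 23.1% at the shortest and 61.0% at the longest introns, and in PRCC(I371F) 26.9% and 37.1%. In PRCC(I371F) it was highest at 50 to 54 nt, with 46.2%. With introns of 100 nt or more and sites 1 nt apart, the share of downstream shifts was 59.0% in PRCC(null) and 32.8% in PRCC(I371F), and that of upstream shifts 10.4% and 5.31%. Downstream shifts were also counted among the introns under 100 nt whose downstream site was above 0 in all 3 control libraries. In PRCC(null) they were 1 of 11 at 39 to 44 nt, 14 of 42 at 45 to 49 nt and 11 of 21 at 50 to 54 nt. At 55 to 69 nt they were 2 of 10, and at 70 to 99 nt 1 of 4. In PRCC(I371F) these numbers were 3, 17, 11, 5 and 1. Beyond 50 to 54 nt no rise with length was seen there in either PRCC strain, and the classes from 55 nt are small.

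Other alternative 5' events, with sites 2 to 50 nt apart, give a setting for these shares. In the same 5 length classes, from the shortest to the longest, upstream shifts were found there in PRCC(null) in 12.1%, 9.88%, 10.3%, 3.31% and 3.39% of events with a less used upstream site. In PRCC(I371F) these shares were 9.09%, 8.89%, 5.97%, 1.38% and 2.14%. Downstream shifts were found in PRCC(null) in 4.76%, 8.68%, 21.7%, 38.5% and 19.8% of events with a less used downstream site, highest at 55 to 69 nt. In PRCC(I371F) they were found in 14.3%, 14.0%, 18.0%, 14.9% and 7.07%. The shortest class of these other events is small, with 33 events of the first kind and 42 of the second. Whether the dependence on length differs between sites 1 nt apart and other events was not tested.

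**Figure D5:**
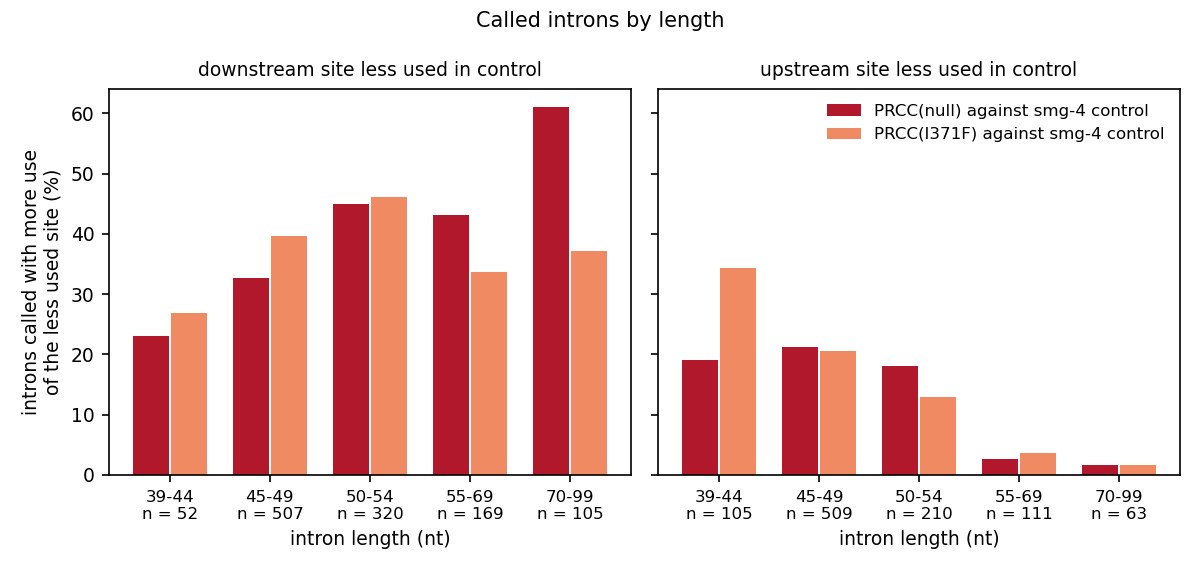
Share of introns (in percent) called by limma with more use of the less used site, by intron length in nt, for PRCC(null) and PRCC(I371F) against the smg-4 control; n is the number of introns in a length class. In the right panel the shares at 39 to 44 nt are 19.0% in PRCC(null) and 34.3% in PRCC(I371F), and both are 1.59% at 70 to 99 nt.

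The lower share of upstream shifts in longer introns was seen on both strands. Among introns with a less used upstream site, 63.0% lie on the plus strand, against 50.7% of those with a less used downstream site and 52.4% of all events. At 39 to 49 nt, upstream shifts were found in PRCC(null) in 21.6% of introns on the plus strand and 19.7% on the minus strand, and at 50 to 99 nt in 9.84% and 13.1%. In PRCC(I371F) the shares were 21.1% and 25.9% at 39 to 49 nt, and 6.69% and 11.5% at 50 to 99 nt.

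The PRCC strains were also compared directly, as a contrast in the same fit to all 15 libraries. The control means do not enter this contrast, but the control libraries enter its estimate of the spread. In PRCC(null) against PRCC(I371F), 76 introns had more use of the downstream site, against 6.66% of all events, and 64 had less, against 1.42%. A fit to the 6 PRCC libraries alone called 24 introns in all. The shares of the introns described here are 3.53% and 2.98%. PRCC(null) and PRCC(I371F) belong to different numbered sets, so the strain and the set cannot be told apart here. The counts by length that follow come from the fit to all 15 libraries. Among 105 introns of 70 to 99 nt with a less used downstream site, 21 had more use of it in PRCC(null) and 1 had less. These numbers were 8 and 7 of 169 at 55 to 69 nt, 4 and 17 of 320 at 50 to 54 nt, 9 and 23 of 507 at 45 to 49 nt, and 1 and 2 of 52 at 39 to 44 nt. Where the upstream site is the less used one, no intron of 39 to 44 nt had more use of it in PRCC(null) and 11 had less. Most introns of either kind were not called in this comparison, and the dependence on length was not tested.

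The average use of the less used downstream site at 70 to 99 nt was 6.99%, 6.05% and 4.97% in PRCC(null), and 3.75%, 4.29% and 3.91% in PRCC(I371F), against 1.25%, 0.578% and 0.591% in the control. At 50 to 54 nt it was 3.33%, 3.31% and 3.21% in PRCC(null), and 4.59%, 5.07% and 4.59% in PRCC(I371F), against 0.884%, 0.560% and 1.30% in the control. The order of the PRCC strains was thus reversed between these classes, with no overlap of their libraries in either. The average use of the less used upstream site at 39 to 44 nt was 2.24%, 2.61% and 3.93% in PRCC(null), and 5.12%, 5.38% and 5.47% in PRCC(I371F), against 0.763%, 0.702% and 0.457% in the control. In the same class it was 3.69%, 3.37% and 2.69% in KIN17(M107I) and 1.19%, 2.77% and 2.79% in KIN17(K23N), so the KIN17(M107I) libraries overlap those of PRCC(null).

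The introns in which the PRCC strains differed most include several with a PSI of 0 or 100% in every control library. In cbs-1, described above, PRCC(null) used the downstream site 21.9 points more than PRCC(I371F) (adjusted p = 0.00628, and 0.0604 in a fit to the 6 PRCC libraries alone). A5.008481 (45 nt, chrIII:6068351-6068395, plus strand) had 89.5%, 86.7% and 80% in PRCC(null), against 100% in the 3 PRCC(I371F) libraries and 100% in all 9 libraries of the other strains. A5.009261 (50 nt, chrIII:8432882-8432931, minus strand) had 81.8%, 85.7% and 71.4% in PRCC(null), against 100% in PRCC(I371F). It had 92.9%, 100% and 100% in KIN17(K23N), and 100% in the control and KIN17(M107I). The opposite was seen in A5.000684 (47 nt, chrI:3358237-3358283, plus strand), with 100% in the 3 PRCC(null) libraries, against 88.5%, 89.5% and 87.5% in PRCC(I371F) and 100% in all 9 libraries of the other strains. The less used site of A5.008481 and of A5.000684 has a value above 0 in 1 strain only, so these introns could be in the tables only through the strain that differs, and no p is given for them. A5.009425 (48 nt, chrIII:9101504-9101551, plus strand) had 0% in PRCC(null), against 25%, 37.5% and 33.3% in PRCC(I371F). It had 25%, 0% and 0% in KIN17(K23N), and 0% in the control and KIN17(M107I). Outside the strain that differs, the less used site of A5.009425 and of A5.009261 was above 0 only in a single KIN17(K23N) library. For this reason no p is given for these introns either. The other 5 introns named for this comparison are given with the results that call for a closer look.

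Few introns used both sites at similar levels in every library. A5.017220 (48 nt, chrV:13665626-13665673, plus strand) is the only one with all 15 libraries between 20% and 80%. The downstream site was used at 21.4%, 23.5% and 26.4% in PRCC(null) and at 31.0%, 29.3% and 23.6% in PRCC(I371F), against 37.6%, 45.3% and 49.3% in the control. The change of A5.017220 passed the test in PRCC(null) (-20.3 points, adjusted p = 0.00817) and not in PRCC(I371F) (-16.1 points, adjusted p = 0.0521), and the direct comparison of these strains gave -4.19 points (adjusted p = 0.695). In KIN17(M107I) it had 42.9%, 37.5% and 39.6%, and in KIN17(K23N) 30.7%, 28.9% and 39.1%, and neither passed.

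Many of these introns do not stand alone. A 5' site is shared with another scored event in 693 of them (32.2%), in 318 with an event whose sites lie 4 nt apart, and 8 introns share both sites with another of the set. The introns that share a site include F09E5.8, dnj-20, T19A5.3, Y54G2A.36, A5.005433, A5.012224, A5.015198, A5.015840 and A5.014909. PSI in such an intron counts only the 2 sites of the pair, so use of any other site is not seen in it. Without the introns that share a site, limma called 436 of 1458 in PRCC(null) (29.9%) and 447 in PRCC(I371F) (30.7%). Among the 170 introns whose less used site was above 0 in all 3 control libraries, it called 40 (23.5%) and 48 (28.2%). Both ways of counting were chosen after the values were seen.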

How the data were processed

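The authors trimmed the 75 nt paired reads and mapped them to WS220/ce10 with STAR, after modifying the aligner so that UU/AG counts among its intron motifs. Alternative 5' events have sites at most 50 nt apart and introns supported by 5 or more reads summed across the samples, and PSI was derived with junctionCounts. The deposited score of each form is its PSI as a fraction times 1000. Scores of 999 and 1 were read as 100% and 0, which is an assumption.

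Libraries were assigned to strains by the strain and genotype in their labels. limma 3.58.1 in R 4.3.3, with the trend and robust options, was fitted to log2((PSI + 0.01)/(1 − PSI + 0.01)) of 15261 events in 15 libraries, with Benjamini-Hochberg adjustment over all events. How well this fit finds shifts in introns whose control libraries use only the preferred site was not tested. Named introns passed limma and the pairwise rule (per PRCC strain the 10 largest downstream and 6 largest upstream shifts, per KIN17 strain up to 5 in each direction), or were the 5 largest differences between the PRCC strains in each direction by limma, or lay between 20% and 80% in all libraries (up to 6, of which 1 exists). The introns and lists were chosen with earlier results of these data known. Other fits, thresholds and lengths, and leaving out each library, were tried. The replicates are separate RNA isolations. Gene names and intron starts come from the study's table of events, of which 50 lines matched 1 of these introns each by position within 5 nt. The gene annotation at hand is of another build and gave no exon or UTR. The depth of each value is unknown.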

Additional observations from a re-analysis of the deposited data

Results flagged for a closer look

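PRCC(null) and PRCC(I371F) were tested against each other in the limma fit. The 10 introns named for this comparison are given here because limma called them. More use of the downstream site in PRCC(null) was found in cbs-1 (21.9 points), A5.012817 (15.1 points), A5.014909 (12.3 points), A5.000684 (11.5 points) and A5.010811 (9.71 points). Less use was found in A5.015840 (-75.0 points), A5.009425 (-31.9 points), A5.009261 (-20.3 points), A5.005609 (-20.2 points) and A5.008481 (-14.6 points).

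A5.012817 (41 nt, chrIV:8985487-8985527) had 100% in all 3 PRCC(null) libraries, against 84.2%, 75.6% and 94.9% in PRCC(I371F) (adjusted p = 0.00317). A5.014909 (48 nt, chrV:2849752-2849799) had 18.2%, 14.3% and 4.55% in PRCC(null), against 0% in PRCC(I371F) (adjusted p = 0.00642). The control had 0%, 2.50% and 8.57% there, KIN17(K23N) 12.5%, 8.70% and 7.69%, and KIN17(M107I) 0%. Neither PRCC strain passed the limma test of A5.014909 against the control (adjusted p = 0.0704 in PRCC(null) and 0.16 in PRCC(I371F)). A5.010811 (75 nt, chrIV:444400-444474) had 92.3%, 90.0% and 91.8% in PRCC(null), against 81.3%, 84.2% and 79.3% in PRCC(I371F) (adjusted p = 0.0302), and the control lay at 70.5%, 77.5% and 76.6%. Its call was lost without replicate 1 or 3 of either PRCC strain, with adjusted p from 0.0710 to 0.0914.

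A5.015840 (78 nt, chrV:8271629-8271706) had 0%, 25% and 50% in PRCC(null), against 100% in all PRCC(I371F) libraries (adjusted p = 0.0345). Its control libraries spread over 20.0%, 75.0% and 100%, and without replicate 1 or 2 of PRCC(null) or any replicate of PRCC(I371F) the adjusted p was 0.0574 to 0.117. A5.005609 (65 nt, chrII:8651547-8651611) had 0%, 4.55% and 11.1% in PRCC(null), against 25%, 31.3% and 20.0% in PRCC(I371F) (adjusted p = 0.0188, and 0.0601 without replicate 2 of PRCC(I371F)). In a fit to the 6 PRCC libraries alone the calls of cbs-1 (adjusted p = 0.0604), A5.012817 (0.0654), A5.014909 (0.0623), A5.010811 (0.148), A5.015840 (0.0924) and A5.005609 (0.301) were lost. The strains come from different numbered sets of libraries, so strain and set cannot be told apart.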

How the results depend on the processing

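No paired analysis was possible because the labels number the libraries through and give no replicate number that groups could share. Counts that moved by over 1.5 times are given here. A mean difference over 20 points left limma calls in 27 introns in PRCC(null), 43 in PRCC(I371F), 1 in KIN17(M107I) and 1 in KIN17(K23N) against the control, in 5 for PRCC(null) against PRCC(I371F), in 11 for PRCC(null) against KIN17(M107I) and in 33 for PRCC(I371F) against KIN17(K23N). Only introns whose less used site was above 0 in all control libraries, fewer by construction and chosen after seeing the data, gave in the same order 40, 48, 4, 2, 3, 33 and 37 limma calls, and 7, 12, 0 and 0 by the pairwise rule for the 4 strains. With 0.05 added, limma called 7 in KIN17(M107I) and 3 in KIN17(K23N), with untransformed PSI 0 and 0, and with neither fit option 28 and 17. The 6 libraries alone gave 17 in KIN17(K23N). PRCC(null) against PRCC(I371F) gave 223 with untransformed PSI and 24 with the 6 libraries alone, and KIN17(M107I) against KIN17(K23N) 1 with neither option and 4 with the 6 libraries alone. A pairwise difference of 20 points left 14 introns in PRCC(null), 3 in KIN17(M107I) and 1 in KIN17(K23N), and introns under 75 nt 1 in KIN17(K23N). The median change in PRCC(null) was 0.0966 under 75 nt and 0.137 under 150 nt. The cause of these shifts was not tested.

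Leaving out 1 library gave limma counts of 524 to 644 in PRCC(null), 517 to 659 in PRCC(I371F), 10 to 16 in KIN17(M107I), lowest without its replicate 2, and 5 to 10 in KIN17(K23N), with 6, 6 and 5 without control replicate 1, 2 or 3. It gave 132 to 153 for PRCC(null) against PRCC(I371F), 387 to 494 for PRCC(null) against KIN17(M107I) and 401 to 524 for PRCC(I371F) against KIN17(K23N). Between the KIN17 strains it gave 0 to 1, with 1 without KIN17(K23N) replicate 1 or 3. Pairwise counts were 25 to 29, 44 to 50, 5 to 8 and 2 to 5, highest for KIN17(M107I) without its replicate 3 and for KIN17(K23N) without its replicate 1 or control replicate 3. With a library left out the rule has fewer pairs to pass, which loosens it by construction. The counts for PRCC(null) and PRCC(I371F) thus lie above those with all libraries, 23 and 40, and these ranges cannot show stability. Median changes were 0.0867 to 0.130 in PRCC(null) and 0.0715 to 0.129 in PRCC(I371F). Of 440 alternatives for single introns, 56 lost the call and none turned its direction.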

Other observations

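In a few introns all 3 libraries of a mutant strain lay on the other side of 50% from the control mean. In PRCC(null) there were 0 with more than 50% use of the downstream site and 3 with less, and only A5.012224 of these passed limma (adjusted p = 0.0380). In PRCC(I371F) there were 3 and 5, of which C36E8.4 (adjusted p = 0.0112), T21H3.9 and pept-2 passed and the others had adjusted p between 0.0794 and 0.542. KIN17(M107I) had 0 and 1, which did not pass, and KIN17(K23N) had 0 and 0. C36E8.4 (46 nt) used the downstream site at 54.3%, 65.0% and 57.1% in PRCC(I371F) and 40.9%, 23.1% and 43.6% in PRCC(null), against 17.2%, 31.1% and 25% in the control. A5.005024 (48 nt) had 27.8%, 27.8% and 26.7% in PRCC(null) and 23.8%, 19.5% and 16.3% in PRCC(I371F), against 46.2%, 37.5% and 84.2% in the control. The control libraries of A5.005024 lay on both sides of 50%, and neither PRCC strain passed (adjusted p = 0.143 and 0.0794). These introns were named after their values were seen.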
